A study of Mus musculus with 12 samples.

Results

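Npas4, Nr4a1, Nr4a2 and Nr4a3 encode transcription factors of the immediate early class, and they are described here across 12 RNA sequencing libraries of primary neurons from C57Bl6 mice. They were chosen by name as 4 of the 22899 genes counted, and all 4 had enough counts to be tested, as did 13139 genes in all. The libraries formed 4 groups of 3. OGD neurons underwent oxygen-glucose deprivation, a culture model of ischaemia, and were set against their own OGD control neurons. KA neurons received kainic acid, which opens glutamate receptors of the kainate and AMPA types, at 100 µM, and were set against their own KA control neurons. All 4 groups share the strain and cell type. No source used here gives the brain region, the age in culture, the length of exposure or recovery, or whether the replicates were separate cultures, so each p-value measures a spread that may be technical.

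Npas4 is a bHLH-PAS factor that neurons make after calcium enters the cell, and it binds DNA as a dimer with Arnt or Arnt2. It is known for driving Bdnf and other genes that adjust inhibitory synapses to activity. Nr4a1 (Nur77), Nr4a2 (Nurr1) and Nr4a3 (Nor1) are orphan nuclear receptors that act without a classical ligand and bind the NBRE motif as monomers. Nr4a1 and Nr4a2 can also pair with retinoid X receptors. In neurons the Nr4a genes are switched on within a short time by calcium and cAMP signals through CREB, which binds the cAMP response element, and Nr4a2 is required for midbrain dopamine neurons to form.

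The genes lie on 4 chromosomes of the mouse build mm10 (GRCm38), with spans from GENCODE M21. Npas4 (ENSMUSG00000045903.9) spans chr19:4984355-4990316 on the minus strand. Nr4a1 (ENSMUSG00000023034.7) spans chr15:101254269-101274795 on the plus strand. Nr4a2 (ENSMUSG00000026826.13) spans chr2:57106830-57124003 on the minus strand, and Nr4a3 (ENSMUSG00000028341.9) spans chr4:48045153-48086447 on the plus strand. Overlap of the 4 with other annotated genes was not examined.

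The promoter windows are shown because these genes share a known route of induction through the cAMP response element (CRE), whose core is TGACG or, on the other strand, CGTCA. Each window is the 300 bases around a RefSeq transcription start on GRCm38.p6, written 5′ to 3′ on the gene's own strand, and the cores are in capitals. The windows are chr19:4989922-4990221 (minus strand) for Npas4, chr15:101266596-101266895 (plus) for Nr4a1, chr2:57123954-57124253 (minus) for Nr4a2 and chr4:48045055-48045354 (plus) for Nr4a3.
Npas4: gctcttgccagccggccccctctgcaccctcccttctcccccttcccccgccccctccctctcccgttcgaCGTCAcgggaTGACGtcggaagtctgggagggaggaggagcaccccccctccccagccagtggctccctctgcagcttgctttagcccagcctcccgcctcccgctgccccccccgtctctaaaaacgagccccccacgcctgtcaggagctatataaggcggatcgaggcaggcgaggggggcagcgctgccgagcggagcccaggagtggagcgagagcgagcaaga
Nr4a1: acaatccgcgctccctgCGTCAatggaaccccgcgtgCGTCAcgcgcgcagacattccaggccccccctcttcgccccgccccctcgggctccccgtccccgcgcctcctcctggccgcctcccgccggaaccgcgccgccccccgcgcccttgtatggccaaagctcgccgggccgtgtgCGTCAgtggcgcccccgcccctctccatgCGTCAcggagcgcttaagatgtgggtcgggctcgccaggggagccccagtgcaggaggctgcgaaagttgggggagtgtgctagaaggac
Nr4a2: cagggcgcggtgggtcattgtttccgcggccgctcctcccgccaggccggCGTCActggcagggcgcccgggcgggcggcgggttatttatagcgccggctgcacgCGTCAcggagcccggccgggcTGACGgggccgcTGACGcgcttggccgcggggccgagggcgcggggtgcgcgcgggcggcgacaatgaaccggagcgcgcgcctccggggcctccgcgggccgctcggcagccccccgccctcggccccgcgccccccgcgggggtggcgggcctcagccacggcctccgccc
Nr4a3: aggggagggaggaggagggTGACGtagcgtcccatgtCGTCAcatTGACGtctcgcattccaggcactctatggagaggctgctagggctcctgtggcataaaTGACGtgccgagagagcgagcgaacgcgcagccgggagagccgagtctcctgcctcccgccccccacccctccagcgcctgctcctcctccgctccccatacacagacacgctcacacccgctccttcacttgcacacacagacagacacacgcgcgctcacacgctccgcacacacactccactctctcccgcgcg

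Npas4 held 2 cores, at 179 and 169 bases before the start. Each Nr4a window held 4, at 233, 213, 69 and 40 bases before the start in Nr4a1, at 200, 144, 123 and 111 in Nr4a2, and at 231, 213, 205 and 147 in Nr4a3. Over all 32851 windows of the same length, 20.8% held at least 1 core, 5.01% at least 2 and 0.231% at least 4. A palindromic CRE (TGACGTCA), which would count as 2 overlapping cores, was in none of the 4 windows and in 1.79% of all windows. None of the 4 held TCGTG, a site bound by NPAS4-ARNT dimers (16.0% of all windows), AAAGGTCA, the NBRE (1.51%), or a CArG box, bound by serum response factor (1.63%). TATAAA was found on the reverse strand in Nr4a2, against 13.6% of all windows with a match on either strand. GC content was 69.3% in Npas4, 72.3% in Nr4a1, 81.7% in Nr4a2 and 64.7% in Nr4a3. All of these are matches of letters in the reference, since no binding was measured.

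The level of each gene is given below as CPM (read counts relative to library size, scaled by TMM), in libraries 1, 2 and 3 of each group. In KA neurons, Npas4 was measured at 2614, 2795 and 2524 CPM, against 62.4, 67.2 and 72.7 CPM in KA control neurons. In OGD neurons it was measured at 869, 754 and 783 CPM, against 961, 1018 and 1004 CPM in OGD control neurons. Every KA library was above every other library, and every KA control library was below every other library. The OGD libraries lay below the OGD control libraries without overlap.

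Nr4a1 was measured at 1314, 1597 and 1285 CPM in KA neurons, against 62.5, 73.4 and 74.5 CPM in KA control neurons. In OGD neurons it was measured at 848, 801 and 809 CPM, against 831, 897 and 844 CPM in OGD control neurons. KA was again highest and KA control lowest, with KA library 2 above the other two, while OGD and OGD control overlapped.

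Nr4a2, the receptor needed for dopamine neurons, had the fewest counts of the 4, which bears on its precision. It was measured at 31.7, 32.7 and 29.0 CPM in KA neurons, against 3.88, 3.13 and 3.53 CPM in KA control neurons, the lowest group at 69, 73 and 69 raw counts. In OGD neurons it was measured at 19.3, 18.4 and 21.6 CPM, against 20.5, 24.9 and 25.6 CPM in OGD control neurons. The KA libraries stood above all others, and OGD control library 1 lay within the OGD range.

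Nr4a3 was measured at 1171, 1202 and 1131 CPM in KA neurons, against 191, 192 and 199 CPM in KA control neurons. In OGD neurons it was measured at 519, 525 and 509 CPM, against 606, 631 and 597 CPM in OGD control neurons. The 4 groups did not overlap at all.

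**Figure D1:**
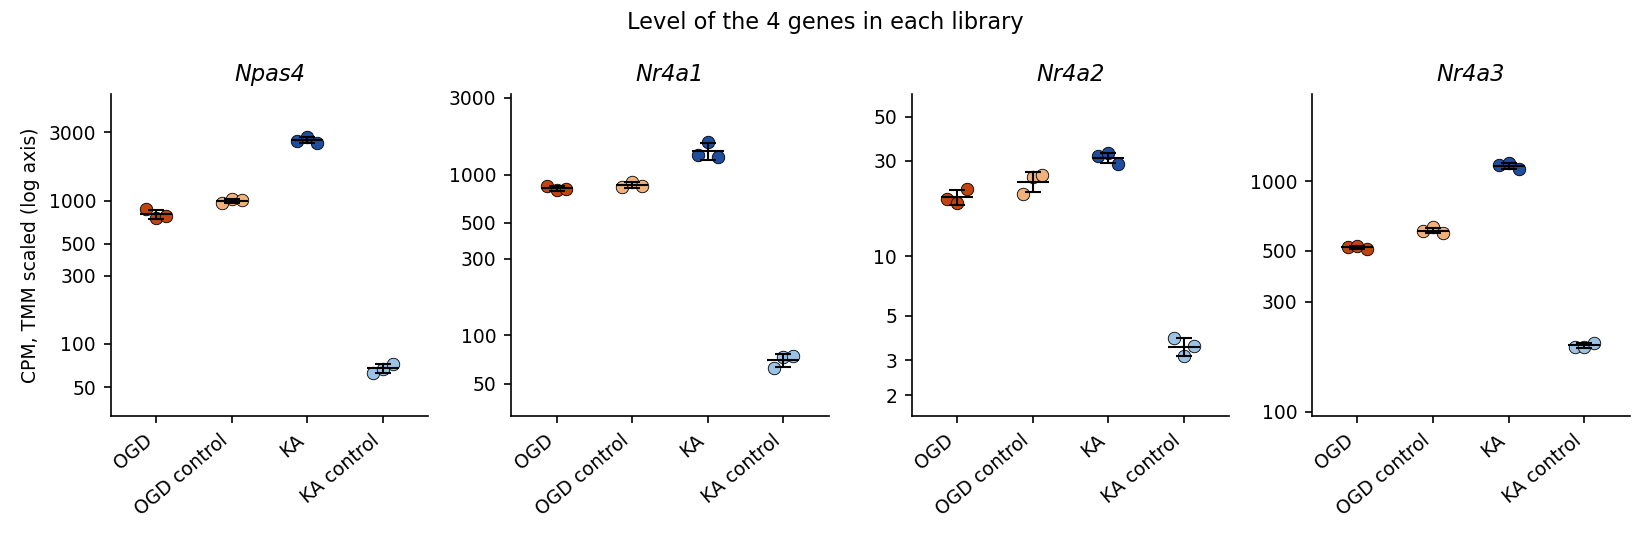
Level of Npas4, Nr4a1, Nr4a2 and Nr4a3 in each library, in TMM-scaled CPM on a log axis with a range of its own in each panel. Points are libraries and bars are the mean ± SD of 3 libraries. In every gene the KA libraries are highest and the KA control libraries lowest, and OGD and OGD control lie between them, close to each other.

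KA raised all 4 genes. Npas4 averaged 2645 ± 138 CPM in KA neurons and 67.4 ± 5.13 CPM in KA control neurons (SD, n = 3 each), a 39.2-fold rise (log2 fold change 5.29, SE 0.06, adjusted p = 4.42e-32). Nr4a1 averaged 1399 ± 172 CPM in KA neurons and 70.1 ± 6.62 CPM in KA control neurons, a 19.9-fold rise (log2 fold change 4.32, SE 0.07, adjusted p = 4.1e-29). The other receptors rose less. Nr4a2 averaged 31.1 ± 1.91 CPM in KA neurons and 3.51 ± 0.371 CPM in KA control neurons, an 8.96-fold rise (log2 fold change 3.16, SE 0.11, adjusted p = 2.49e-21). Nr4a3 averaged 1168 ± 35.7 CPM in KA neurons and 194 ± 4.49 CPM in KA control neurons, a 6.02-fold rise (log2 fold change 2.59, SE 0.04, adjusted p = 4.54e-29). Tests are edgeR's quasi-likelihood test with Benjamini-Hochberg adjustment over the 13139 genes tested.

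The KA response was wide across the genome, so the 4 of 4 genes called higher stand beside 35.2% of all tested genes called higher and 37.6% called lower. The libraries of the 4 genes did not overlap, and 35.3% of tested genes lay higher in this way. Without TMM, scaled by library size only, 24.1% were called higher and 51.3% lower, since that scaling moved the median log2 fold change of all genes by -0.26. The size of the change set the 4 genes apart more than the call did. Ordered from the largest rise among the 13139 genes, Npas4 was in place 13, Nr4a1 in place 45, Nr4a2 in place 125 and Nr4a3 in place 232. Among the 9337 genes with a mean of at least 2 log2 CPM, the places were 6, 27, 61 and 124. The median log2 fold change of the 4 genes was 3.74, against -0.02 over all genes.

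OGD did not raise any of the 4 genes. Npas4 averaged 802 ± 59.8 CPM in OGD neurons and 995 ± 29.7 CPM in OGD control neurons (SD, n = 3 each) and fell by 0.31 on the log2 scale (SE 0.05, adjusted p = 1.69e-05). Nr4a3 averaged 517 ± 8.11 CPM in OGD neurons and 611 ± 17.3 CPM in OGD control neurons and fell by 0.24 (SE 0.04, adjusted p = 2.4e-05). Nr4a2 averaged 19.8 ± 1.65 CPM in OGD neurons and 23.7 ± 2.78 CPM in OGD control neurons and fell by 0.27 (SE 0.08, adjusted p = 0.0105). The Nr4a2 call was lost without OGD library 2 (log2 fold change -0.21, adjusted p = 0.0741), without OGD control library 2 (-0.23, adjusted p = 0.0626) and without OGD control library 3 (-0.21, adjusted p = 0.0868).

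Nr4a1 averaged 819 ± 24.9 CPM in OGD neurons and 857 ± 34.9 CPM in OGD control neurons, with a log2 fold change of -0.07 (SE 0.06, adjusted p = 0.422). Its 95% interval ran from -0.19 to 0.06, so a fall as large as that of Npas4 lay outside it. The 3 of 4 genes called lower after OGD stand beside 20.5% of all tested genes called lower and 17.6% called higher (17.2% and 23.8% by library size only). Npas4 and Nr4a3 were the 2 whose libraries did not overlap, beside 25.0% of tested genes that lay lower in this way. Counted from the largest fall, Npas4 was in place 2161, Nr4a2 in place 2562, Nr4a3 in place 2844 and Nr4a1 in place 5221 of 13139 genes. The median log2 fold change of the 4 genes was -0.26, against 0.006 over all genes. In bulk RNA, fewer cells of a type and less RNA per cell cannot be told apart.

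**Figure D2:**
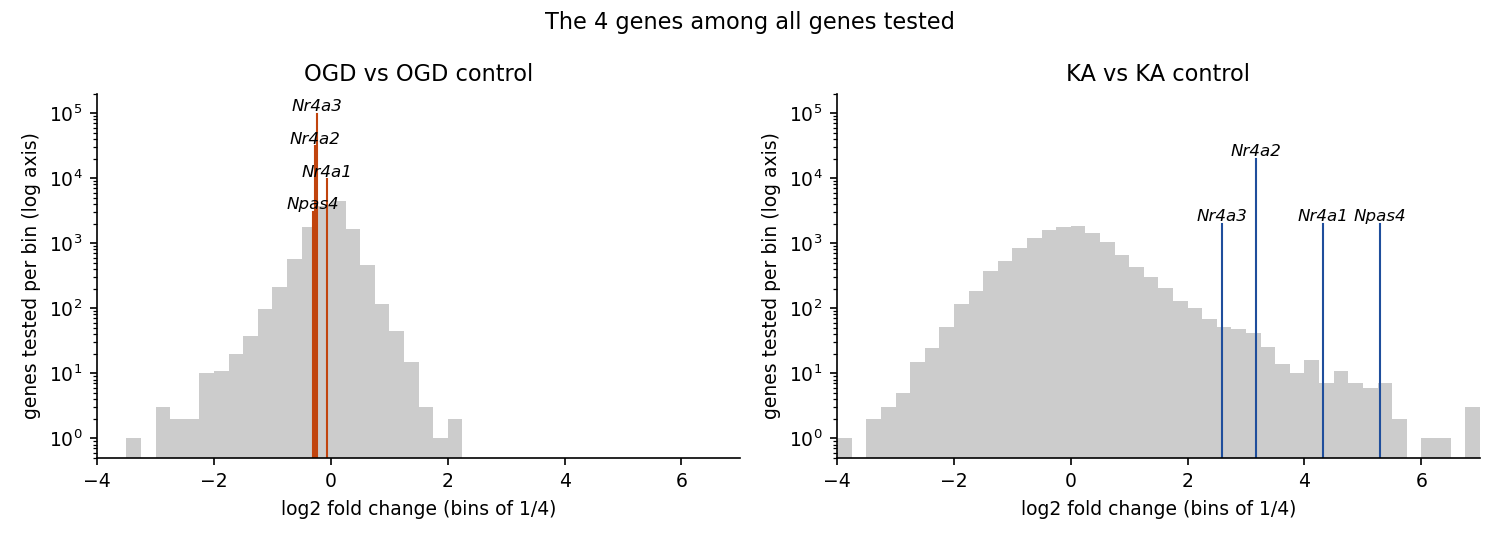
Histogram of the log2 fold changes of the 13139 genes tested, in bins of 1/4 with the number of genes on a log axis, for OGD against OGD control and KA against KA control. Vertical lines mark the 4 genes, at -0.31 to -0.07 in the OGD panel, just left of the peak of the histogram, and at 2.59 to 5.29 in the KA panel, in its right tail.

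The responses to KA and to OGD were compared directly as a difference of log2 fold changes, KA minus OGD. That difference was 5.60 (SE 0.08) for Npas4, 4.38 (SE 0.09) for Nr4a1, 3.43 (SE 0.14) for Nr4a2 and 2.83 (SE 0.06) for Nr4a3, with adjusted p-values of 7.66e-30, 3.27e-26, 3.17e-19 and 2.56e-26. All 4 passed in the direction of KA, as did 33.8% of all tested genes, with 34.4% called the other way (22.6% and 48.7% by library size only, which moved the median of all genes by -0.31).

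**Figure D3:**
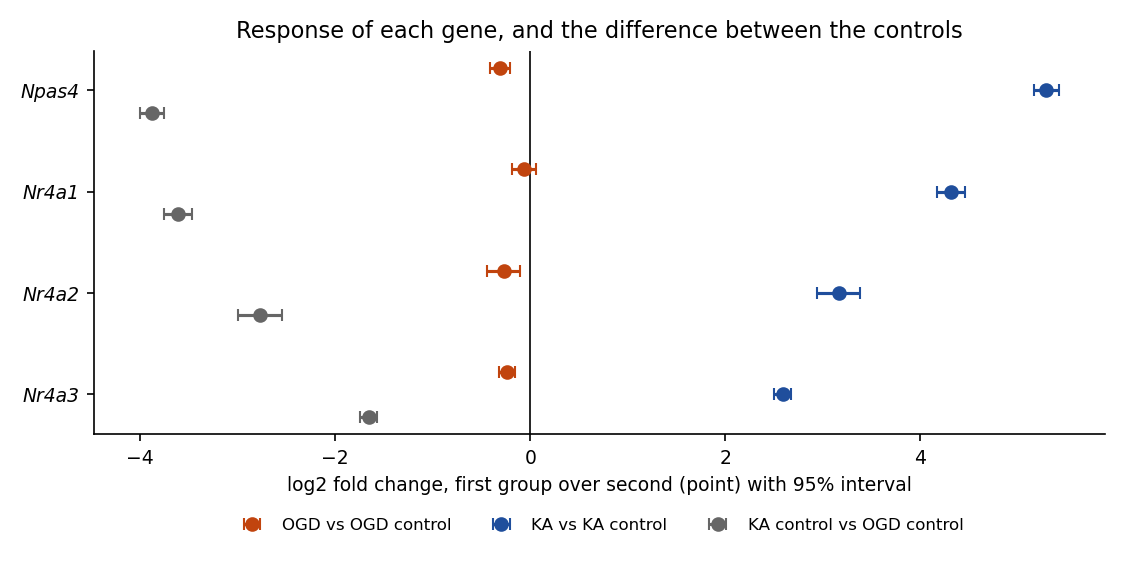
Log2 fold change of each gene in OGD against OGD control, in KA against KA control, and in KA control against OGD control. Bars are 95% intervals from the edgeR fit of 12 libraries. The OGD values lie between -0.31 and -0.07, and the KA values between 2.59 and 5.29. The values of KA control against OGD control, which are no treatment response, lie between -3.88 and -1.66.

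The untreated groups did not start from the same level. Npas4 was 14.7-fold lower in KA control neurons than in OGD control neurons (log2 fold change -3.88, SE 0.06, adjusted p = 4.37e-29). Nr4a1 was 12.2-fold lower in KA control (-3.61, SE 0.07), Nr4a2 6.82-fold lower (-2.77, SE 0.11) and Nr4a3 3.15-fold lower (-1.66, SE 0.04), with adjusted p-values of 5e-27, 2.93e-19 and 3.79e-24. The 4 genes kept the order of their KA response here. All 4 were called lower, beside 34.2% of all tested genes called lower and 34.5% called higher (23.8% and 46.8% by library size only, which moved the median of all genes by 0.19). The median of the 4 genes was -3.19, against 0.003 over all genes. Each control belongs to its own experiment, so untreated state and experiment cannot be told apart, and the comparisons of KA, OGD and the 2 controls share libraries.

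Set against the OGD control level, the KA level was less far away. Npas4 was 2.66-fold higher in KA neurons than in OGD control neurons, Nr4a3 1.91-fold, Nr4a1 1.63-fold and Nr4a2 1.31-fold, and all 4 were called, beside 29.3% of all tested genes called higher (24.1% by library size only). The adjusted p was 0.000119 for Nr4a2, the smallest of these differences. Set against OGD neurons, KA neurons were 3.30-fold higher in Npas4, 2.26-fold in Nr4a3, 1.71-fold in Nr4a1 and 1.58-fold in Nr4a2, beside 32.6% of tested genes called higher and 31.5% lower (25.6% and 39.8% by library size only). OGD neurons in turn were 11.9-fold higher than KA control neurons in Npas4, 11.7-fold in Nr4a1, 5.66-fold in Nr4a2 and 2.67-fold in Nr4a3, beside 33.2% called higher and 34.1% lower (24.9% and 43.6% by library size only). The order of group means, high to low, was therefore KA, OGD control, OGD and KA control in each gene, and the one neighbouring pair that did not pass was OGD and OGD control in Nr4a1. Values across the 2 experiments carry the limit on experiment given above.

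The 4 genes rose by unequal fitted amounts under KA, while after OGD most ratios between them overlapped between the groups. Ratios between them within a library need no scaling, and the 6 possible ratios were compared in each treatment. Npas4 had 1.99, 1.75 and 1.96 counts per Nr4a1 count in KA neurons, against 0.998, 0.916 and 0.975 in KA control neurons. It had 1.03, 0.942 and 0.968 in OGD neurons, against 1.16, 1.14 and 1.19 in OGD control neurons. Npas4 thus gained on Nr4a1 under KA in all 3 libraries, and its ratio after OGD lay below that of OGD control.

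On the log2 scale (pseudocount 0.5), Npas4 over Nr4a1 was 0.98 higher in KA neurons than in KA control neurons, Npas4 over Nr4a2 2.15 higher and Npas4 over Nr4a3 2.70 higher. Nr4a1 over Nr4a2 was 1.17 higher, Nr4a1 over Nr4a3 1.72 higher and Nr4a2 over Nr4a3 0.55 higher. None of these 6 ratios overlapped between KA and KA control. The 6 come from only 4 genes, so they are not independent. How often ratios of other gene pairs lie apart was not measured, and 35.3% of single tested genes lay higher without overlap under KA. After OGD, Npas4 over Nr4a1 was lower by 0.25 and Nr4a1 over Nr4a3 higher by 0.18 than in OGD control without overlap, and the other 4 ratios overlapped. For each of the 8 that did not overlap the exact two-sided permutation test gave p = 0.1, the smallest that 3 against 3 allows, and 0.15 after adjustment over the 12 ratios, so none could pass.

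Counts of the 3 receptors were also expressed as shares of their sum, not corrected for gene length, to follow how the shares differ between groups. Nr4a1 made up 53.7 ± 2.32% of Nr4a counts in KA neurons and 26.2 ± 1.66% in KA control neurons (SD, n = 3 each). Nr4a3 made up 45.1 ± 2.28% in KA neurons and 72.5 ± 1.49% in KA control neurons. The share of Nr4a1 was thus higher, and that of Nr4a3 lower, in KA than in KA control. In the other experiment Nr4a1 made up 60.4 ± 0.791% in OGD neurons and 57.4 ± 0.388% in OGD control neurons, with Nr4a3 at 38.2 ± 0.815% in OGD neurons and 41.0 ± 0.527% in OGD control neurons. Nr4a2 stayed between 1.20% and 1.58% in the group means.

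**Figure D4:**
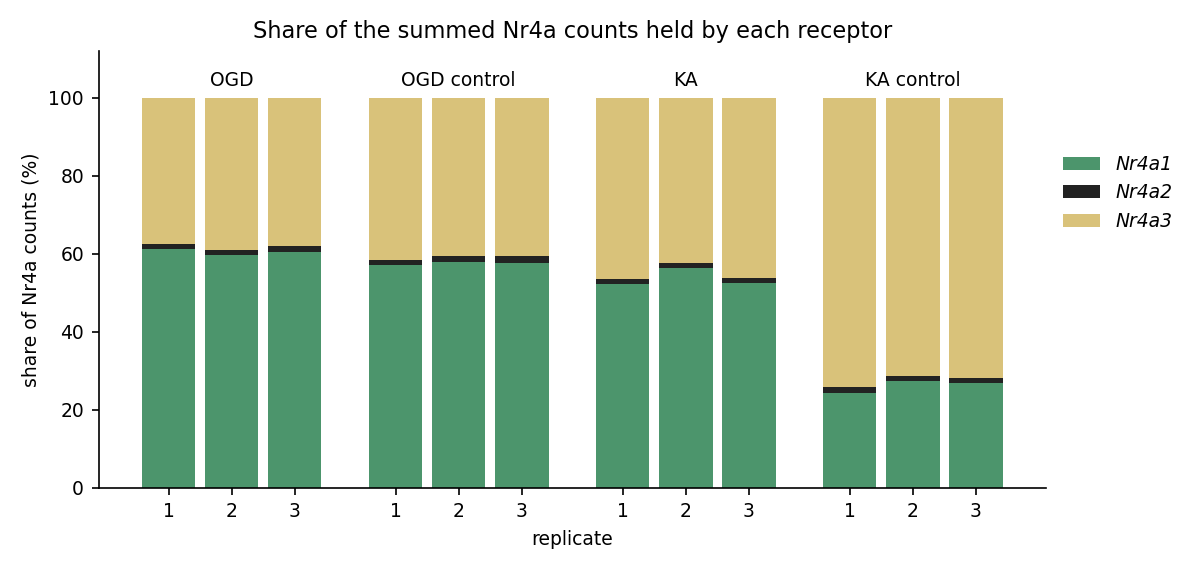
Share of Nr4a1, Nr4a2 and Nr4a3 in the summed counts of the 3 genes, in percent, for each library of the 4 groups. Counts are not corrected for gene length. The Nr4a3 share is highest in the KA control libraries, at a mean of 72.5%, against 45.1% in KA, 38.2% in OGD and 41.0% in OGD control.

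Counts also depend on the length of a gene, so the levels of the 4 genes were set side by side per length of exon. Nr4a1 had 399 CPM per kb in KA neurons and 20.0 in KA control neurons, and 233 in OGD neurons and 244 in OGD control neurons. Npas4 had 639 CPM per kb in KA neurons and 16.3 in KA control neurons, and 194 in OGD neurons and 240 in OGD control neurons. Nr4a3 had 195 CPM per kb in KA neurons and 32.4 in KA control neurons, and 86.4 in OGD neurons and 102 in OGD control neurons. Nr4a1 was thus above Nr4a3 in KA neurons and Nr4a3 above Nr4a1 in KA control neurons on this scale. Nr4a2 stood far lower, at 7.67 CPM per kb in KA neurons and 0.865 in KA control neurons, and 4.87 in OGD neurons and 5.83 in OGD control neurons. Nr4a2 and Nr4a3 have 2 curated RefSeq transcripts each, and some genes with several transcripts have few counts in this table, which limits such comparisons between genes.

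Of the dimer partners of Npas4, Arnt2 fell after KA. Arnt2, its partner in neurons, averaged 338 ± 19.7 CPM in KA neurons and 478 ± 7.74 CPM in KA control neurons and fell by 0.50 on the log2 scale (SE 0.04, adjusted p = 1.62e-11). It averaged 558 ± 14.2 CPM in OGD neurons and 583 ± 13.9 CPM in OGD control neurons, with a log2 fold change of -0.07 (adjusted p = 0.248). Arnt, the other partner, which has 2 RefSeq transcripts, had 5 to 22 counts per library and passed in neither comparison (adjusted p = 0.0787 for KA and 0.541 for OGD). Among bHLH-PAS genes and their coactivators, 14 of 18 were tested. Of these, 5 rose and 4 fell after KA (median 0.04), near the 35.2% of all tested genes called higher and 37.6% called lower. After OGD 0 rose and 6 fell (median -0.19), beside 17.6% called higher and 20.5% called lower over all genes. The coactivator Ncoa3 rose by 0.77 after KA (adjusted p = 3.91e-15) and fell by 0.33 after OGD (adjusted p = 2.01e-06). Ncoa1, also a coactivator, fell by 0.46 after KA and by 0.21 after OGD, and the clock factor Arntl fell by 0.66 after OGD.

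Retinoid X receptors, the partners of Nr4a1 and Nr4a2, were sparsely counted. Rxrg averaged 2.74 ± 0.233 CPM in KA neurons and 7.63 ± 0.509 CPM in KA control neurons and fell by 1.49 on the log2 scale (SE 0.14, adjusted p = 5.87e-11). It averaged 2.35 ± 0.262 CPM in OGD neurons and 2.60 ± 0.322 CPM in OGD control neurons (log2 fold change -0.14, adjusted p = 0.59). Rxra had 1 to 10 counts per library and was not tested, and Rxrb is listed at 0 in every library. They have 3 and 4 RefSeq transcripts, and some genes with several transcripts have few counts in this table, so these values do not show that the receptors were scarce. Of the other nuclear receptors, 26 of 46 were tested. After KA 12 rose and 7 fell (median 0.12), beside 35.2% and 37.6% of all tested genes. After OGD 1 rose and 5 fell (median -0.09), beside 17.6% and 20.5%, so the count that fell was near that of all genes. Rara, a retinoic acid receptor, rose by 4.23 after KA (SE 0.18, adjusted p = 1.3e-18), to 13.4 ± 1.31 CPM in KA neurons, against 0.692 ± 0.183 CPM in KA control neurons. Nr2f1, an orphan receptor that patterns the cortex, rose by 0.97 after KA, and the orphan receptor Nr2c2 fell by 1.06. After OGD, Nr2f1 fell by 0.51 and its relative Nr2f2 by 0.61, and the lipid-sensing receptor Ppard rose by 0.54 (adjusted p-values 3.87e-10, 2.63e-06 and 0.000126).

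Factors that act upstream of immediate early genes were read as a list. Of 16 tested (17 listed), 11 rose and 3 fell after KA (median log2 fold change 0.45), beside 35.2% of all tested genes called higher and 37.6% lower. Srf, the serum response factor, rose by 2.03 (SE 0.06, adjusted p = 1.4e-22), to 320 ± 35.3 CPM in KA neurons, against 78.8 ± 1.47 CPM in KA control neurons. Elk4, a ternary complex factor that works with Srf, rose by 1.61, and the calcium-regulated factor Mef2d rose by 1.27. After OGD 2 rose and 6 fell (median -0.08), beside 17.6% of all tested genes called higher and 20.5% lower. Srf rose by 0.38 after OGD, while Crebbp, the coactivator of CREB, fell by 0.41 and Mef2c by 0.29 (adjusted p-values 6.01e-06, 9.8e-08 and 6.91e-05).

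Genes known as targets of Npas4 were next read, and all 14 listed were tested. The list was chosen with earlier results of these data known, so its counts are a description. Whether Npas4 drove these genes here was not tested. After KA 13 rose and 1 fell (median log2 fold change 2.85), beside 35.2% of all genes called higher. After OGD 1 rose and 9 fell, with a median of -0.52, beside 17.6% of all genes called higher and 20.5% called lower. Bdnf, a growth factor for synapses, averaged 67.6 ± 3.43 CPM in KA neurons and 7.90 ± 0.545 CPM in KA control neurons and rose by 3.10 (SE 0.08, adjusted p = 1.23e-24). It averaged 20.9 ± 1.51 CPM in OGD neurons and 40.1 ± 3.04 CPM in OGD control neurons and fell by 0.94 (SE 0.07, adjusted p = 1.87e-11). Nptx2, a secreted pentraxin that clusters AMPA receptors, averaged 822 ± 60.4 CPM in KA neurons and 48.1 ± 2.74 CPM in KA control neurons. It averaged 173 ± 19.6 CPM in OGD neurons and 309 ± 18.7 CPM in OGD control neurons. Nptx2 rose after KA (adjusted p = 1.08e-28) and fell by 0.84 after OGD (adjusted p = 1.55e-11). Bdnf and Nptx2 thus had the same order of groups as Npas4, KA highest and KA control lowest, with a larger fall after OGD than Npas4 in the fitted values.

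Of the remaining targets, 7 rose after KA and fell after OGD. The log2 fold changes for KA and then OGD were 5.43 and -0.75 for Csrnp1, a nuclear factor of the immediate early class, and 3.55 and -0.28 for Pcsk1, a prohormone convertase. For Homer1, a postsynaptic scaffold, they were 2.25 and -0.56, and for the potassium channel Kcna1 1.97 and -0.72. For the kinase Plk2 they were 1.59 and -0.70, for the kinase Sik1 2.81 and -0.17, and for the guidance receptor Nrp1 1.35 and -0.56. All of these passed, with adjusted p-values of at most 0.00233.

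Gem, a small GTP-binding protein, rose by 5.41 after KA, and the receptor Gpr3 rose by 2.88, while their OGD values did not pass (-0.06, adjusted p = 0.51, and -0.10, adjusted p = 0.412). Mdm2, a ubiquitin ligase with 13 to 43 counts per library, rose by 0.90 after KA and had -0.49 after OGD (adjusted p = 0.146). Arc, a synaptic protein, was called higher after KA and was the 1 target called higher after OGD (log2 fold change 1.11, SE 0.25, adjusted p = 0.000628). It averaged 3.16 ± 0.434 CPM in KA neurons and 0.0814 ± 0.0233 CPM in KA control neurons, and 1.87 ± 0.266 CPM in OGD neurons and 0.876 ± 0.190 CPM in OGD control neurons. Its KA control level rests on 1 or 2 counts per library, so its KA fold is not given. Arc has 2 RefSeq transcripts and had at most 65 counts in any library. Some genes with several transcripts have few counts in this table, so these values do not show that Arc was scarce, and they limit its OGD call. Syt10, a synaptotagmin, was the exception under KA and fell by 0.73 (adjusted p = 8.45e-08), with -0.03 after OGD (adjusted p = 0.896).

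**Figure D5:**
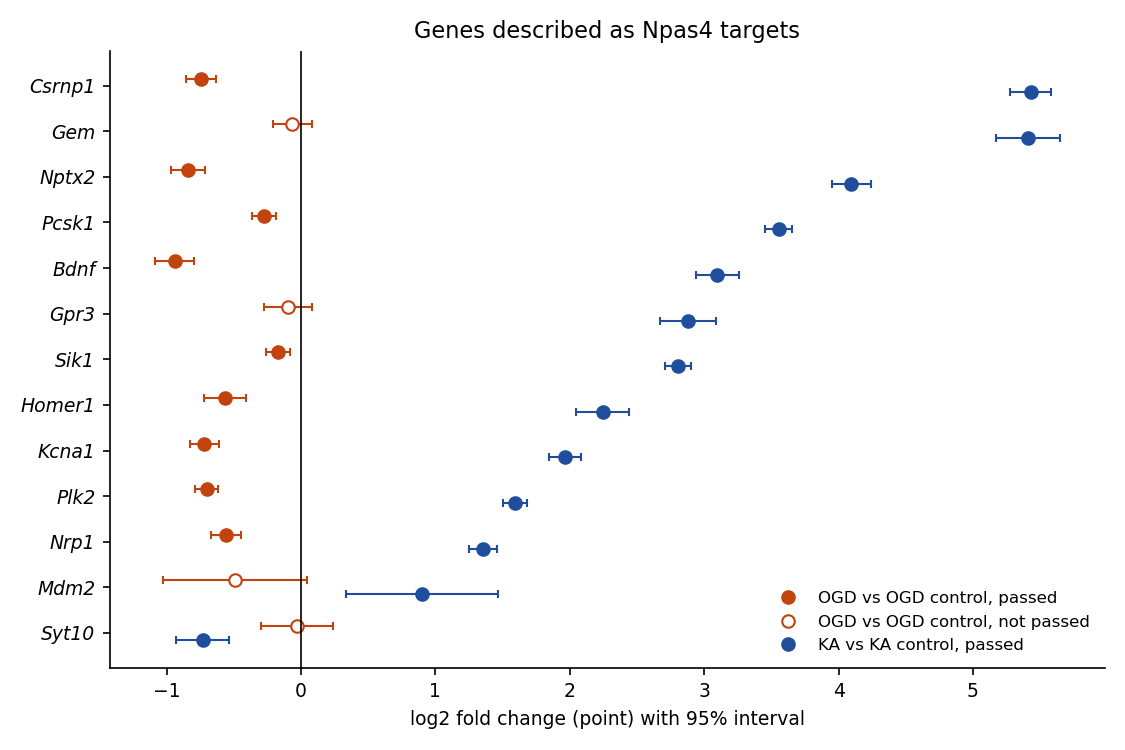
Log2 fold change of Npas4 target genes in OGD against OGD control and in KA against KA control, with 95% intervals from the edgeR fit, filled where the test passed. Arc is left out because its KA control libraries hold 1 or 2 counts, and of the 13 shown Syt10 alone lies below 0 under KA, at -0.73.

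Genes listed as Nr4a targets in other cells gave no common direction. Of the 9 listed 7 were tested, and after KA 2 rose and 2 fell, with a median of -0.51, beside 35.2% of all genes called higher and 37.6% called lower. Slc18a2, the vesicular monoamine transporter, rose by 0.52 after KA (adjusted p = 6.02e-07) and fell by 0.48 after OGD (adjusted p = 6.83e-06). Star, a cholesterol carrier of steroid-making cells, fell by 0.72 after KA and by 0.30 after OGD. Aldh1a1, an aldehyde dehydrogenase, rose by 1.01 after KA at a low level, 1.15 ± 0.126 CPM in KA neurons against 0.562 ± 0.0536 CPM in KA control neurons. After OGD 0 rose and 2 fell (median -0.19), beside 17.6% and 20.5% of all genes.

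The genes whose pattern over the 12 libraries was most like each of the 4 were found by the root mean square (RMS) difference of centred log2 CPM, among genes with a mean of at least 2 log2 CPM. For Npas4 they were Egr2 (RMS 0.203), Cyr61 (0.248), Csrnp1 (0.258), Fos (0.265) and Tnfaip6 (0.269). Egr2 and Fos are immediate early transcription factors, Cyr61 is a secreted matrix protein and Tnfaip6 binds hyaluronan. For Nr4a1 they were Maff (0.102), Egr4 (0.153), Gpx8 (0.169), Cyr61 (0.184) and Rasd1 (0.201), of which Maff and Egr4 are transcription factors and Rasd1 is a small GTP-binding protein. For Nr4a2 they were Sik1 (0.145), Erf (0.159), Dusp4 (0.175), Fgl2 (0.181) and Rem2 (0.189). Sik1 is a kinase that restrains CREB coactivators, Erf a repressor of the ETS family and Dusp4 a MAP kinase phosphatase. The nearest gene to any of the 4 was Fndc9 beside Nr4a3 (0.0542), followed for Nr4a3 by Pam, a peptide-amidating enzyme (0.0962), Sv2c, a synaptic vesicle protein (0.0990), Pvr (0.105) and Per2, a clock gene (0.106). Pearson's r with the nearest gene was 0.995 for Npas4, 0.998 for Nr4a1, 0.996 for Nr4a2 and 0.998 for Nr4a3, as a description over libraries that share 4 group means. Ranked by r instead, the 5 nearest genes shared 0, 1, 1 and 1 with these lists for Npas4, Nr4a1, Nr4a2 and Nr4a3, so the order depends on the measure.

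The measure of likeness uses the KA and KA control libraries, so the nearest genes had to have KA responses close in size, and their values are given as a description. Egr2 rose by 5.13 under KA and Fos by 4.97, beside 5.29 for Npas4. Maff rose by 4.21 beside 4.32 for Nr4a1, Sik1 by 2.81 beside 3.16 for Nr4a2, and Fndc9 by 2.55 beside 2.59 for Nr4a3. Under OGD, Egr2 rose by 0.17 (adjusted p = 0.0324) and Fndc9 fell by 0.18 (adjusted p = 0.00441). Among the 4 genes themselves the closest pair by RMS was Npas4 and Nr4a1 (0.40), then Nr4a2 and Nr4a3 (0.448), while Npas4 and Nr4a3 lay 1.05 apart. Pearson's r gave another order. It was highest for Nr4a1 and Nr4a2 (0.993), 0.988 for Npas4 and Nr4a3, and lowest for Nr4a2 and Nr4a3 (0.949).

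The label of primary neurons was checked against markers. Summed neuron markers reached 7717 to 8314 CPM in KA, 5743 to 5824 in KA control, 6469 to 6623 in OGD and 6137 to 6483 in OGD control, while Rbfox3 had 2 to 10 counts per library and was not tested. Over all tested genes, 35.2% were called higher and 37.6% lower after KA, and 17.6% and 20.5% after OGD. The marker counts below stand beside these shares, and with so few genes per list none was tested against them. Of 7 neuron markers tested, 5 rose and 1 fell after KA. After OGD 1 rose (Tubb3, 0.43) and 3 fell (Nefl by 0.52, Nefm by 0.46 and Snap25 by 0.37), so the sum and the single genes did not move alike. Astrocyte markers summed to 156 to 165 CPM in KA and 74.5 to 74.9 in KA control (4 of 7 tested rose), and to 68.4 to 77.1 in OGD and 83.5 to 94.3 in OGD control (2 of 7 fell). Microglia markers summed to 9.40 to 12.7 CPM in KA and 5.11 to 6.39 in KA control (5 of 6 rose), and to 5.33 to 6.38 in OGD and 4.51 to 6.74 in OGD control (0 of 6 called). Fibroblast and mural markers summed to 19.1 to 19.8 CPM in KA and 6.01 to 6.59 in KA control (4 of 6 rose), and to 15.4 to 18.4 in OGD and 20.5 to 22.4 in OGD control (1 of 6 fell), with Pdgfrb at 0 throughout. Endothelial markers summed to 5.41 to 5.98 CPM in KA and 3.01 to 3.27 in KA control (both genes tested, Esam and Flt1, rose), and to 3.36 to 4.53 in OGD and 4.58 to 5.19 in OGD control (neither called), with Pecam1 at 0 or 1 count. Oligodendrocyte markers summed to 36.4 to 41.5 CPM in KA and 32.8 to 35.4 in KA control (1 of 4 tested rose), and to 31.0 to 36.1 in OGD and 33.7 to 37.0 in OGD control (2 of 4 fell). Rbfox3, Pecam1 and Pdgfrb have 6, 4 and 2 RefSeq transcripts, and some genes with several transcripts have few counts in this table. Their low counts therefore do not show that these markers were absent. The part of the other cell types in the results was not tested. Total counts ran from 12873444 to 21142267 per library, where 1 count equals 0.0429 to 0.0832 CPM.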

How the data were processed

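RNA from 12 libraries of primary mouse neurons was sequenced. Per the labels' protocols, RNA was purified with an RNeasy kit and libraries were made with TruSeq RNA v2, a kit without strand marking. The submitters' processing notes name mm10, HTSeq 0.6.1, TopHat 1.4.1 and bcl2fastq 1.8.4, with neither settings nor annotation. The values are raw counts for 22899 gene symbols, deposited without normalization by the authors. Its OGD columns are headed OGT and were matched to the OGD titles by name, with 1 letter different.

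Counts were fitted in R 4.3.3 with edgeR 4.0.16 (filterByExpr with minimum count 10 and minimum total 15, TMM, quasi-likelihood test, 1 fit of 4 group means, 8 residual degrees of freedom). A gene was called where p, adjusted by Benjamini-Hochberg over all 13139 tested genes, was under 0.05. The common biological coefficient of variation was 0.0402. SEs and 95% intervals come from the test statistic. Chi-square per degree of freedom between replicates was 1.48 to 6.19, above sampling noise, and each library was counted once. This excess does not show that the libraries were separate cultures. It was 4.11 to 6.19 within KA and 1.48 to 2.15 within KA control, while the fit shares 1 estimate of the spread over the groups.

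Alternatives were DESeq2 1.42.0, its size factors in edgeR, library size only, no count filter and a filter of 1 CPM throughout a group. Others were the replicate number as a block, the compared groups alone, and genes with 1 annotated transcript plus the 4 genes. Each library was also left out in turn, and for ratios a pseudocount of 5 was used. The transcript setting keeps Nr4a2 and Nr4a3, which have 2 RefSeq transcripts each, so it does not check how their reads were counted. Gene spans come from GENCODE M21 and promoter windows from RefSeq (GRCm38.p6), in which all 4 genes were found. The fitting was tested on simulated data. Of 1.2-fold changes, 46% were recovered in OGD against OGD control, 50% in KA against KA control and 20% in the difference of responses. Of 4-fold changes, 100%, 98% and 96% were recovered. False calls were 11 of 162, 8 of 158 and 3 of 127 calls. Changes as small as 1.2-fold can thus be missed. Protein sequences were not analysed here.

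The genes and lists were chosen with earlier results of these data known. Named genes were the 4 genes, their dimer partners, all tested Npas4 targets, the 3 called genes with the smallest adjusted p of each other list in each treatment comparison, and the 5 nearest genes to each member. No file or library was left out.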

Additional observations from a re-analysis of the deposited data

Results flagged for a closer look

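The responses of all 4 genes differed between the experiments by the test of the difference itself (edgeR's quasi-likelihood test, Benjamini-Hochberg adjusted over all genes). KA minus OGD, the log2 fold changes differed by 5.60 for Npas4 (adjusted p = 7.66e-30), by 4.38 for Nr4a1 (3.27e-26), by 3.43 for Nr4a2 (3.17e-19) and by 2.83 for Nr4a3 (2.56e-26). By the same test 33.8% of all tested genes were called in the direction of KA. Each of the 4 genes was higher in 3 of 3 KA libraries than in every KA control library, as were 35.3% of all tested genes. The control levels behind the differences of the 4 genes were themselves 14.7-fold, 12.2-fold, 6.82-fold and 3.15-fold lower in KA control than in OGD control.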

How the results depend on the processing

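The log2 fold changes of the 4 genes were read again under each alternative, and each value below is 1 gene in 1 comparison. Direction and side of the threshold were kept in all 220 values with another setting. With 1 library left out they were kept in 189 of 192 values, several of which come from the same fit. The other 3 were Nr4a2 in OGD against OGD control, where leaving out 1 library gave -0.35 to -0.21. Over all alternatives the adjusted p of Nr4a2 there ran from 0.00153 to 0.0868 and that of Nr4a1 from 0.221 to 0.841, never passing. Under KA, Npas4 ran from 5.03 to 5.35, Nr4a1 from 4.06 to 4.37, Nr4a2 from 2.91 to 3.23 and Nr4a3 from 2.33 to 2.61. By library size only, the median of all genes also moved by -0.12 for KA against OGD and by -0.14 for OGD against KA control. Deviations of same-numbered libraries correlated at 0.204, 0.0674 and 0.0647 for OGD and OGD control, where differently numbered ones ran from -0.139 to 0.0873. For KA and KA control the values were -0.213, -0.103 and -0.205, where differently numbered ones ran from -0.0263 to 0.209. The numbers thus gave no sign of pairing KA with KA control, and for OGD these weak values leave pairing unsettled. Deviations from a group mean are tied to each other, so the check cannot exclude pairing in either experiment. With a replicate block, OGD against OGD control gave -0.31 for Npas4, -0.06 for Nr4a1, -0.27 for Nr4a2 and -0.24 for Nr4a3, with 16.6% of genes called higher and 19.8% lower, and no call of the 4 genes changed in any comparison. Depth limits Nr4a2 most, at 69 to 73 counts per KA control library, and these limits cover counting error only.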
